A study of Mus musculus with 7 samples.

Results

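The myogenic regulatory factors and their upstream regulators were read as 10 genes, namely the transcription factors Pax7, Pax3, Myf5, Myod1, Myog, Myf6, Mef2c and Msc and the surface receptors Cdon and Boc. They were found by gene name on the arrays, which gave 12 probes of 55681 and 10 of 34947 names. Gene expression had been measured in 7 populations of mouse cells, with 1 array per population, in a series on the origin of dermal cells that can form muscle. In 3 populations the cells were Sdc4+: Myf5SOR+ cells, from B6.129S4 mice with Cre knocked into Myf5, Cspg4- cells, from B6,FVB mice with a Cspg4-cre transgene, and cells of outbred CD1 (ICR) mice. The 3 Sdc4- populations were Cspg4- cells of the Cspg4-cre line, CD1 cells, and B195AP+ cells of B195AP-Cre mice, for which no driver gene is stated. Cspg4+ cells of the Cspg4-cre line, with no Sdc4 label, made the last array. Each population came from 8 to 10 animals and each array used 10 to 200 ng of RNA, per the labels, which do not give the age of the mice, the way the cells were sorted or whether animals were pooled. Sdc4 encodes syndecan-4, a proteoglycan of the satellite cell surface, and Cspg4 encodes the NG2 proteoglycan of pericytes. A Cre tracer marks cells that expressed the driver at some time, and their descendants, so that a traced cell need not express the driver when its RNA is taken.

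Skeletal muscle is built through a cascade of transcription factors. Pax3 and Pax7, paired and homeodomain proteins, mark muscle progenitors and, in the adult, satellite cells. They act upstream of Myf5 and Myod1, the basic helix-loop-helix (bHLH) factors of myogenic determination. Myog (myogenin) is the bHLH factor of terminal differentiation, and Myf6 (MRF4) acts late and in fibres. These factors bind E-boxes with E proteins and work with Mef2c, a MADS-box factor. Msc (musculin, also called MyoR) is a bHLH repressor that binds the same sites. Cdon and Boc are surface proteins of the immunoglobulin superfamily that promote myogenic differentiation through cell contact and also bind Hedgehog proteins.

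The probes that carry the main results are given by the first 30 of their 60 bases, as deposited, all in lower case, with positions in mm9. They belong to the bHLH factors, of which 1 probe each was used, and to Cdon, whose 2 probes can be set against each other. The Myog probe lies at chr1:136188874-136188933 (plus strand), the Myod1 probe at chr7:53633956-53634015 (plus strand), the Myf5 probe at chr10:106919974-106920033 (minus strand) and the Myf6 probe at chr10:106930237-106930296 (minus strand). Myf5 and Myf6 are neighbours on chromosome 10. The Cdon probes lie at chr9:35311862-35311922 (probe 1) and chr9:35315141-35315200 (probe 2), both on the plus strand. Each is assigned to its gene's RefSeq transcript in the files, which do not say whether it is in coding or untranslated sequence.
Myog: atcttgggaaccttccagtgctttgtgtat
Myod1: ttttgttgttgttgttgtagtccttcagtt
Myf5: ttgtatatgccttaaaataacttgataaat
Myf6: tttaaaaagaaacttctcaccacctcaagt
Cdon probe 1: caggcctggggacaaactgtgtgaaggaca
Cdon probe 2: tgtgtgaagttgtacatactctaagtgatg

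Between 45.9% and 57.2% of the non-control spots of an array were well above background, with the highest share on the Cspg4+ array. The B195AP+ array was streaked in its first 200 spot rows and 130 columns. Spots of the same probe varied more on that array than on the others, with a median SD of 0.152 log2 units over 399 probes printed many times, against 0.0630 to 0.0823. Levels below are log2 values relative to the 75th percentile of the array, and a probe counts as well above background where at least a share of 0.5 of its unmarked spots has that call from the scanner software. Each level comes from 1 array, so the SDs given for Myog, Myod1, Myf5 and Pax3, printed as 10 spots, describe spots of an array and not animals. The number of arrays limits the precision. In bulk RNA, fewer cells of a type and less RNA per cell cannot be told apart.

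Of the cascade, Myog and Mef2c were well above background in most populations, Myod1 and Myf6 in 1 population each, and the Pax genes and Myf5 in none. No array of the 7 showed Pax7, Pax3, Myf5 or Msc well above background (0 arrays), and 29.8% of all names shared this. Myod1 was so on 1 array (CD1 Sdc4-), Myf6 on 1 (B195AP+ Sdc4-), Myog on 5 and Mef2c on 6. Cdon and Boc were well above background on all 7, as were 47.2% of all names. The fullest set of myogenic factors was seen in CD1 Sdc4- cells (Myod1, Myog and Mef2c) and B195AP+ Sdc4- cells (Myog, Myf6 and Mef2c), each with 5 of the 10 regulators. Cspg4- Sdc4- and CD1 Sdc4+ cells showed 4 (Myog, Mef2c, Cdon and Boc). Myf5SOR+ and Cspg4+ cells showed 3, Mef2c with Cdon and Boc, and Cspg4- Sdc4+ cells also 3, Myog with Cdon and Boc. The Cspg4+ array had the highest share of all names well above background (64.8%, against 52.3% to 57.1% on the others) and was among the arrays with the fewest of these regulators.

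**Figure D1:**
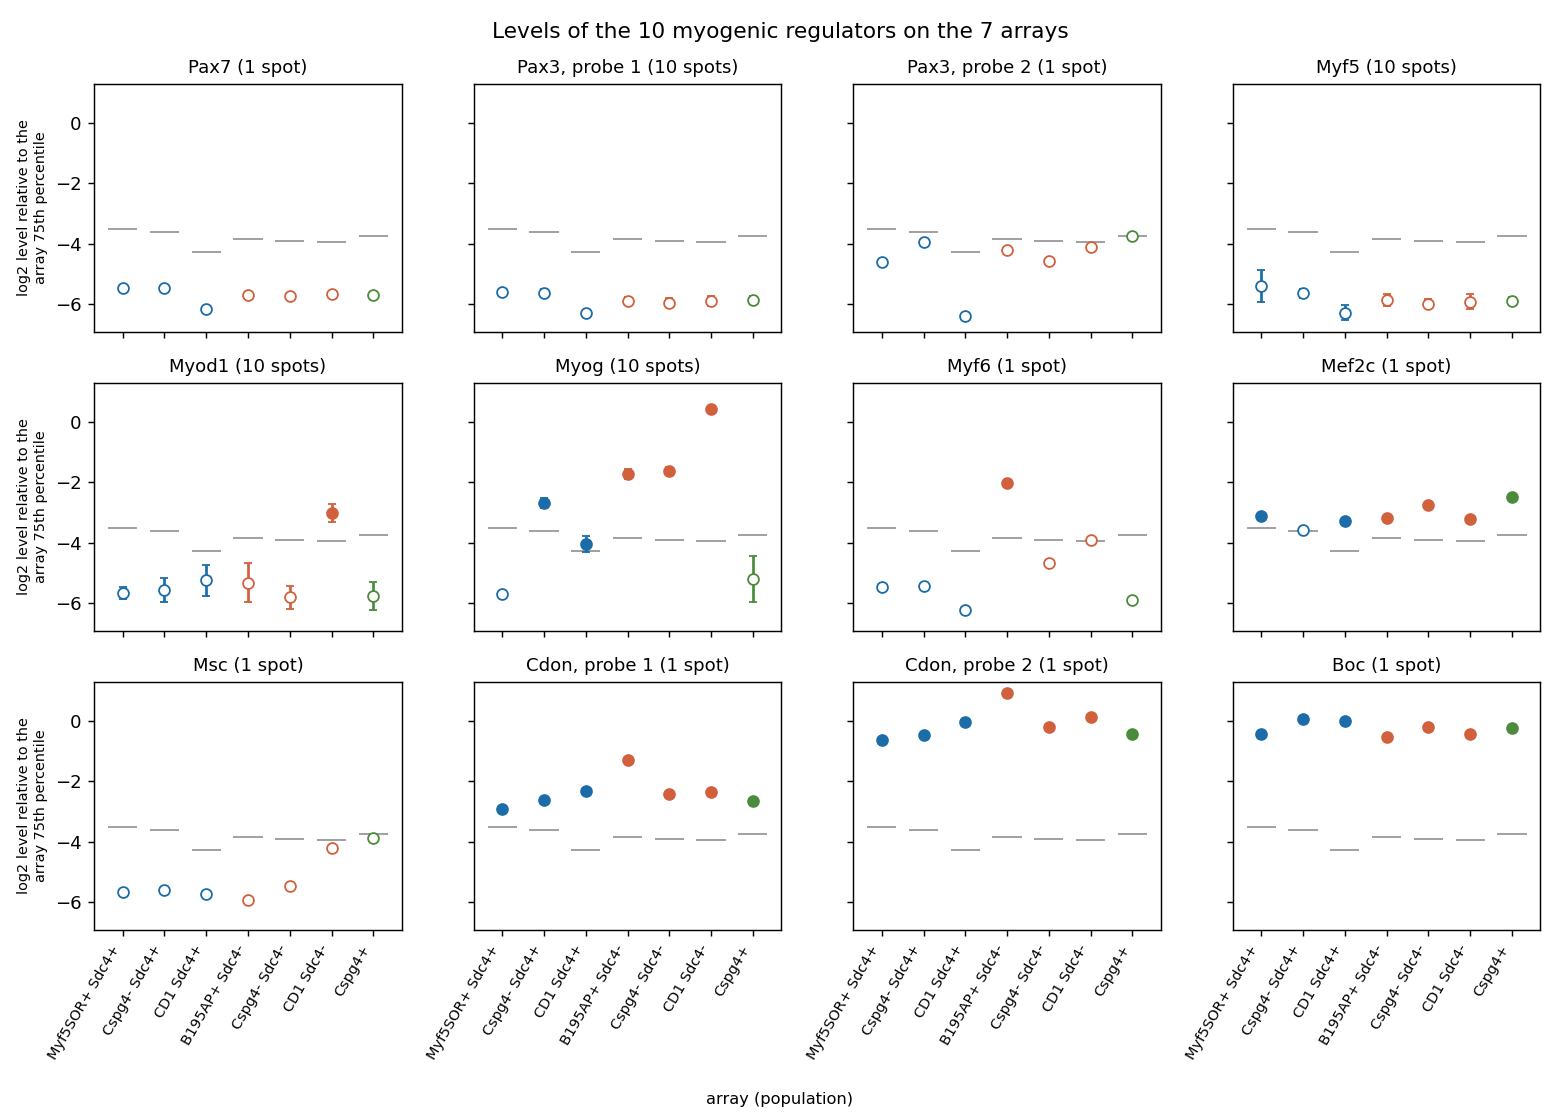
Level of each probe of the 10 regulators on the 7 arrays, as log2 relative to the 75th percentile of the array (vertical axis) by population (horizontal axis; blue Sdc4+, orange Sdc4-, green Cspg4+). Filled points are well above background and open points are not, grey bars mark the lowest well-above-background value of each array, and error bars are the SD over the spots of probes printed 10 times. Among its filled points Myog runs from -4.06 in CD1 Sdc4+ to 0.42 in CD1 Sdc4- cells, while Pax7 and Myf5 lie under the grey bars throughout.

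The upstream transcription factors gave only upper bounds. The Pax7 probe (chr4:139294364-139294423) had processed signals between 2.89 and 4.13, and on all 7 arrays the software had replaced its signal with a surrogate for values under its noise limit. The lowest signal called well above background was 10.6 to 13.9, depending on the array. For Pax3, the probe printed 10 times had mean signals of 2.62 to 3.60, and 0 of 68 usable spots were well above background. A second Pax3 probe (chr1:78099294-78099353, minus strand) reached 13.2 on the Cspg4+ and 12.3 on the CD1 Sdc4- array and 2.87 on the CD1 Sdc4+ array. Its signal was positive and significant against local background on 6 of 7 arrays, without being called well above background on any. On the Cspg4+ array the signal was just over the lowest well-above-background signal of that array (13.1).

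Myf5 had mean signals of 2.59 to 3.55, and 0 of its 70 spots were well above background. Myf5SOR+ cells, traced through the Myf5 locus, had a mean signal of 3.31, with spots from 2.35 to 7.88 and a spot SD of 0.53. Of the 10 spots on that array 3 were positive and significant, and 7 of the 70 were so over all arrays. Relative levels of Myf5 in the 7 populations ranged from -6.30 to -5.41, all below the lowest well-above-background values (-4.27 to -3.53), so they have no order. The Myf5 probe has 15% G and C, and only 27 probes of the array (0.0485%) have as little. Of the 50 probes within 2.5 points of it, 82% were well above background on 0 of 7 arrays and 2% on all 7, against 37.3% and 39.2% of all probes. The part of base composition in the Myf5 reading was not tested.

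Msc, the bHLH repressor (chr1:14744315-14744374), had signals from 2.57 to 12.1. They were 12.1 on the Cspg4+ and 11.53 on the CD1 Sdc4- array, and 2.57 to 4.57 on the other 5, and none was called well above background. The lowest well-above-background signals of those 2 arrays were 13.1 and 13.9.

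Myod1, the determination factor that can turn fibroblasts into muscle cells, was seen in CD1 Sdc4- cells. All 10 spots were well above background there, with signals from 19.5 to 41.7 (mean 26.9, log2 level -3.01, spot SD 0.29). The 99th percentile of the negative control spots of that array was 17.8. On the other 6 arrays the mean signal was 2.58 to 6.71, and no unmarked spot was well above background. Of the unmarked spots, 8 of 9 in CD1 Sdc4+ and 5 of 8 in B195AP+ cells were positive and significant. On each of the remaining arrays 1 or 2 spots were so. Levels in the order of the arrays were -5.66 in Myf5SOR+, -5.58 in Cspg4- Sdc4+ and -5.25 in CD1 Sdc4+ cells. In the Sdc4- populations the level was -5.32 in B195AP+ and -5.81 in Cspg4- cells, and it was -5.78 in Cspg4+ cells. The CD1 Sdc4- array thus stood above the other arrays, whose values were not well above background and have no order.

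As lower bounds against the lowest well-above-background value, Myod1 was at least 2.40-fold higher in CD1 Sdc4- than in CD1 Sdc4+ cells, at least 1.88-fold higher than in Cspg4- Sdc4- cells and at least 1.77-fold higher than in B195AP+ cells. On 4 arrays the software had marked 1 or 2 of the 10 Myod1 spots as outliers, and these were the brighter spots. They had signals of 11.4 and 17.4 on the B195AP+ array, 20.3 on the CD1 Sdc4+ array, 17.5 and 18.5 on the Cspg4- Sdc4- array and 10.7 on the Myf5SOR+ array. With these spots kept, Myod1 was still well above background on 1 array.

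**Figure D2:**
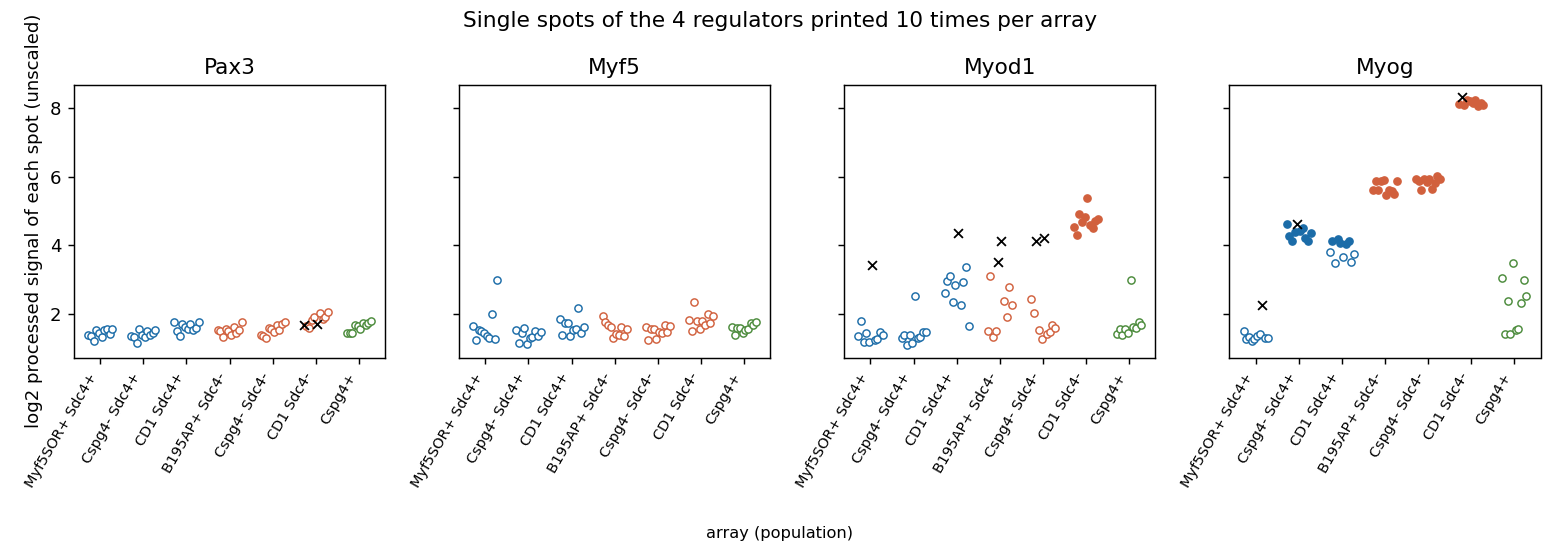
Processed signal of each spot of the 4 regulators printed 10 times per array, as log2 without scaling (vertical axis), by population (horizontal axis; blue Sdc4+, orange Sdc4-, green Cspg4+). Filled circles are spots well above background, open circles are not, and crosses are spots marked as outliers and left out. All Myod1 spots of the CD1 Sdc4- array lie above those of the other arrays that were used, and Pax3 and Myf5 show no filled circle.

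Myog, the differentiation factor, varied over 4.48 log2 units among the 5 arrays on which it was well above background. In Sdc4+ cells its level was -5.71 in Myf5SOR+ cells, where 0 of 9 spots were well above background, -2.68 in Cspg4- cells (9 of 9 spots) and -4.06 in CD1 cells (5 of 10 spots). In Sdc4- cells it was -1.72 in B195AP+ cells, -1.62 in Cspg4- cells and 0.42 in CD1 cells, with all usable spots well above background. The Cspg4+ array gave -5.22, with 0 of 10 spots well above background and a spot SD of 0.76. All 3 Sdc4- arrays were higher than all 3 Sdc4+ arrays, and Cspg4+ cells fell with the low end.

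The signal behind these levels was 284 in CD1 Sdc4- cells, 58.0 in Cspg4- Sdc4- and 52.1 in B195AP+ cells, 20.3 in Cspg4- Sdc4+ and 14.8 in CD1 Sdc4+ cells, and 5.42 and 2.495 in the Cspg4+ and Myf5SOR+ cells. In order of level, Cspg4- Sdc4- and B195AP+ cells differed by less than the spot SD (0.10 against 0.17), and so did Cspg4+ and Myf5SOR+ cells, both below background. The other neighbours in the order differed by more than the spot SD.

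Across lines Myog averaged -4.15 ± 1.52 in Sdc4+ and -0.97 ± 1.21 in Sdc4- cells (SD, n = 3 each), where 2 of the 3 Sdc4+ and all 3 Sdc4- arrays were well above background. The log2 difference of -3.17 (SE 0.89) had an unadjusted limma p of 0.0102 and an adjusted p of 0.469, so it did not pass the threshold of 0.05. It rests in part on the Myf5SOR+ value, which is below background. With that value set to the lowest well-above-background value of its array the difference was -2.45 (5.45-fold), without the Myf5SOR+ array it was -2.39, and with normexp background correction it was -1.10. No gene passed: 0 of 19760 genes tested (0%) passed in this comparison, with a smallest adjusted p of 0.245, while 1814 (9.18%) had an unadjusted p under 0.05. The filter for this test was passed by 4 regulators (Myog, Mef2c, Cdon and Boc). Of these, 1 had an unadjusted limma p under 0.05 and 1 had groups that did not overlap, Myog in both cases. Groups did not overlap for 16.5% of all genes tested (9.26% lower and 7.2% higher in Sdc4+ cells). The Sdc4+ arrays lay in another row of the slide than the Sdc4- arrays, so slide row and Sdc4 status cannot be told apart.

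Within a line, each with 1 array a side and no test, Myog was 22.3-fold lower in the Sdc4+ than in the Sdc4- cells of CD1 and 2.08-fold lower in the Sdc4+ than in the Sdc4- cells of the Cspg4- line. CD1 Sdc4- cells had a 4.12-fold higher level than Cspg4- Sdc4- cells and a 4.41-fold higher one than B195AP+ cells, while CD1 Sdc4+ cells had a 2.60-fold lower level than Cspg4- Sdc4+ cells. The 2 lines thus had opposite orders in the Sdc4+ and Sdc4- populations. Within the Cspg4-cre line, Myog in Cspg4+ cells was at least 4.40-fold lower than in Cspg4- Sdc4- cells and at least 2.12-fold lower than in Cspg4- Sdc4+ cells. Myf5SOR+ cells had an at least 1.80-fold lower level than Cspg4- Sdc4+ cells. Of the 10 Myog spots 3 lay in the streaked region of the B195AP+ array, and without them the difference between the Sdc4 groups was again -3.17.

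The sequence before the Myog start is shown because Myog is the regulator that differs most between the populations. It comprises the 250 bases upstream of the start at chr1:134289754-134290003 (GRCm38.p6, plus strand, RefSeq), printed 5′ to 3′ with capitals for matches to CANNTG, the E-box bound by myogenic bHLH factors, and to TCAGGTTTC, the MEF3 site bound by homeodomain factors of the sine oculis family. Both strands were searched, and the matches do not overlap.
Myog upstream: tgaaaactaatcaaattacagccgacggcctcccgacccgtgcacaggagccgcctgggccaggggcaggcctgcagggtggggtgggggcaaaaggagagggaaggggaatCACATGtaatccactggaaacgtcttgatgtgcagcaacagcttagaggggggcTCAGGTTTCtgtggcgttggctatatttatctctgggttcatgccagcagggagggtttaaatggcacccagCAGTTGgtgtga
The E-box matches begin 138 and 12 bases before the start, and the TCAGGTTTC match 84 bases before it, each counted to its first base. Of 32851 promoter windows of this length, 66.2% hold CANNTG and 0.387% hold TCAGGTTTC. The letters of CAGCTG and CACCTG, held by 13.0% and 17.2% of the windows, are not in this one. A match describes the sequence and does not show that a factor binds there.

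Myf6, the late factor, was well above background in B195AP+ cells alone. Its probe is a single spot per array, with a signal of 42.2 in B195AP+ (level -2.01), 14.3 in CD1 Sdc4- (-3.90) and 6.92 in Cspg4- Sdc4- cells (-4.69). On the 3 Sdc4+ arrays the signal was 2.91 to 3.24 (-6.22 to -5.45), and it was 2.996 on the Cspg4+ array (-5.89). The 3 Sdc4- arrays were the highest, but only the B195AP+ value is a measured level. Myf6 in B195AP+ cells was at least 3.68-fold higher than in CD1 Sdc4- and at least 3.74-fold higher than in Cspg4- Sdc4- cells. No fold between the Sdc4 groups is given, and Myf6 did not pass the filter for the main test. With no filter on dim probes, values below background included, its unadjusted limma p was 0.0130 and its adjusted p 0.682. The spot lies outside the streaked region, and there is no other Myf6 probe to set it against.

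Myog and Myf6 thus came apart between the Sdc4- populations, with Myog 4.41-fold lower and Myf6 at least 3.68-fold higher in B195AP+ than in CD1 Sdc4- cells. Cspg4- Sdc4- cells had Myog within 1.07-fold of B195AP+ cells and Myf6 below background. Myod1 was well above background in CD1 Sdc4- cells and not in the other 2. Each of these comparisons rests on 1 array per population, and the differences between them were not tested.

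Mef2c, the MADS-box partner of the bHLH factors, was low and varied little. Its probe spans an intron, with ends at chromosome 13, 83772788 and 83775025 (mm9). The level was -3.11 in Myf5SOR+, -3.57 in Cspg4- Sdc4+ (not well above background) and -3.27 in CD1 Sdc4+ cells. It was -3.17 in B195AP+, -2.74 in Cspg4- Sdc4- and -3.20 in CD1 Sdc4- cells, and -2.48 in Cspg4+ cells. Sdc4+ and Sdc4- arrays overlapped, and the Cspg4+ array was the highest of the 7. The difference between Sdc4+ and Sdc4- cells was -0.28 (SE 0.22, limma adjusted p = 0.728), from means of -3.32 and -3.04. Cspg4+ cells were higher than the mean of both Sdc4 groups by 0.70 (SE 0.29, unadjusted p = 0.0520, limma adjusted p = 0.877). The same difference was 0.19 with normexp background correction, 0.22 with quantile normalization and 0.19 in the deposited table. In that comparison 0 of 19760 genes (0%) passed, 5.72% had an unadjusted p under 0.05, and 0 of the 4 tested regulators did. In Cspg4+ cells Mef2c was at least 2.13-fold higher than in Cspg4- Sdc4+ cells, and 1.20-fold higher than in Cspg4- Sdc4- cells. On the B195AP+ array the Mef2c spot is among the streaked spots, and leaving these out gave a difference between the Sdc4 groups of -0.34.

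Cdon, the receptor that links cadherin contact to myogenic differentiation, was seen with both probes on all 7 arrays and was highest in B195AP+ cells with both. With probe 2, the brighter, the level was -0.63 in Myf5SOR+, -0.47 in Cspg4- Sdc4+ and -0.04 in CD1 Sdc4+ cells. It was 0.94 in B195AP+, -0.20 in Cspg4- Sdc4- and 0.13 in CD1 Sdc4- cells, and -0.44 in Cspg4+ cells. With probe 1 the levels were -2.92, -2.61 and -2.31 in the same order of Sdc4+ populations. They were -1.30, -2.41 and -2.35 in the Sdc4- populations and -2.66 in Cspg4+ cells. The B195AP+ array was set apart from the rest with both probes, and Myf5SOR+ cells were the lowest.

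Cdon in B195AP+ cells was 2.20-fold higher than in Cspg4- Sdc4- and 1.75-fold higher than in CD1 Sdc4- cells with probe 2, and 2.15-fold and 2.08-fold higher with probe 1. The spot of probe 2 lies in the streaked region and that of probe 1 outside it. Between the Sdc4 groups the difference with probe 2 was -0.67 (SE 0.34, limma adjusted p = 0.601), and -0.35 with the streaked region left out. With probe 1 it was -0.59 (SE 0.35, adjusted p = 0.658 with limma over single probes). The arrays overlapped with both probes.

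Boc, the relative of Cdon, had the narrowest range of the regulators seen on all arrays (0.62 log2 units). The level was -0.44 in Myf5SOR+, 0.08 in Cspg4- Sdc4+ and 0.00 in CD1 Sdc4+ cells. It was -0.54 in B195AP+, -0.20 in Cspg4- Sdc4- and -0.41 in CD1 Sdc4- cells, and -0.24 in Cspg4+ cells. The arrays of the Sdc4 groups overlapped, with a difference of 0.26 (SE 0.22, limma adjusted p = 0.734). Within a line Boc was 1.33-fold higher in the Sdc4+ cells of CD1 and 1.21-fold higher in those of the Cspg4- line. B195AP+ cells, the highest in Cdon, had the lowest Boc value. It differed from that of Myf5SOR+ cells by less than the typical spot SD at that level (0.10 against 0.14).

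Genes listed for the myogenin stage of muscle commitment mostly had lower means in Sdc4+ cells, as Myog did. Of these commitment genes 28 are on the array. The number well above background was 12 in Myf5SOR+, 13 in Cspg4- Sdc4+ and 22 in CD1 Sdc4+ cells. It was 21 in B195AP+, 22 in Cspg4- Sdc4- and 27 in CD1 Sdc4- cells, and 22 in Cspg4+ cells. CD1 Sdc4- cells, the only ones with Myod1 well above background, had the most. Cspg4+ and CD1 Sdc4+ cells had as many as Cspg4- Sdc4- cells at a much lower Myog level. Of all names, 64.8% were well above background on the Cspg4+ array, 57.1% on CD1 Sdc4+, 55.7% on Cspg4- Sdc4- and 55.3% on CD1 Sdc4-. The share was 54.6% on B195AP+, 52.9% on Cspg4- Sdc4+ and 52.3% on Myf5SOR+. Of the 23 genes that entered the test, 22 had a lower and 1 a higher mean in Sdc4+ than in Sdc4- cells, 0 passed the test, 14 had an unadjusted p under 0.05, all lower (background 5.38%), and 14 had groups that did not overlap, all lower (background 9.26%). Their median difference was -1.97, against -0.03 over all genes tested. Genes can enter through the arrays where they are high, so these counts are a description. Among the 10 seen on all 7 arrays 9 were lower, with a median of -0.51 and 3 not overlapping.

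Myh3, the embryonic myosin heavy chain, was at -5.76, -4.19 and -3.11 in Myf5SOR+, Cspg4- and CD1 Sdc4+ cells and at 1.13, 1.84 and 3.79 in B195AP+, Cspg4- and CD1 Sdc4- cells, with -2.16 in Cspg4+ cells. The Myf5SOR+ and Cspg4- Sdc4+ values are below background. Its difference was -6.61 (SE 0.88, limma adjusted p = 0.429), and -5.67 with those values set to the lowest well-above-background value of their array. Actc1, the cardiac actin of developing muscle, differed by -4.95, Tnnt2, the cardiac troponin T that young muscle also makes, by -4.24, and Myh8, the perinatal myosin heavy chain, by -5.72, with adjusted p-values between 0.429 and 0.460. Myf5SOR+ cells were below background for all 3 and Cspg4- Sdc4+ cells for Tnnt2 and Myh8, and with such values set to the same floor the differences were -4.37, -3.25 and -4.76. The other 3 Myh8 probes did not share the chosen probe's value on the B195AP+ array, with -6.06 to -5.67 against -1.04. Within lines the median of the 23 genes was -3.16 in CD1, where 0 were higher in Sdc4+ cells, and -1.39 in the Cspg4- line, where 4 were. Without both CD1 arrays 17 of 23 were lower, with a median of -1.12.

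**Figure D3:**
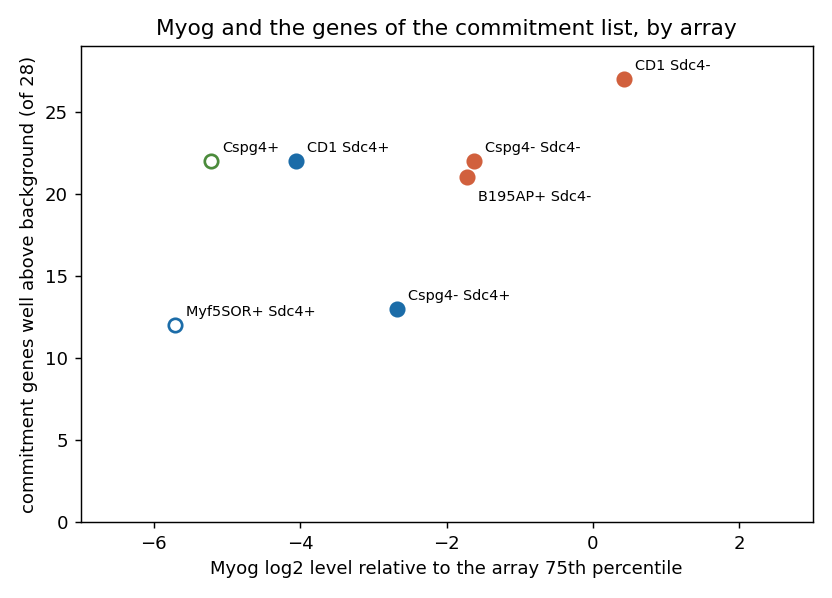
Number of the 28 commitment genes well above background (vertical axis) against the log2 level of Myog relative to the 75th percentile (horizontal axis), with 1 point per array (blue Sdc4+, orange Sdc4-, green Cspg4+; open points have Myog below background). CD1 Sdc4- cells lie at the upper right with 27 genes, and Cspg4+ cells have 22 genes with Myog below background. The Cspg4+ array also had the highest share of all names well above background (64.8%).

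Inhibitors of myogenic bHLH activity (among them Id proteins, Hes1 and Heyl, the Twist and Snail factors and class II histone deacetylases) mostly had higher means in Sdc4+ cells. Of 19 tested, 15 had a higher and 4 a lower mean there, with a median difference of 0.37. The test passed 0 of them. An unadjusted p under 0.05 was found for 3, all higher (background 3.8%), and 5 did not overlap, all higher (background 7.2%). Bhlhe41, a repressor of the bHLH family, differed by 2.05 (SE 0.38, limma adjusted p = 0.429), from levels of -2.17 to -1.11 in Sdc4+ and -4.30 to -3.33 in Sdc4- cells. Id3, which binds E proteins and keeps them from myogenic factors, differed by 1.09 (SE 0.36, adjusted p = 0.487). It was at 5.31 to 5.90 in Sdc4+ and 3.88 to 4.98 in Sdc4- cells, without overlap. The Notch targets Hes1 and Heyl differed by 1.76 and 1.26, with arrays that overlapped. Hes1 was below background in Cspg4- Sdc4- cells, as was Bhlhe41, and Heyl was well above it on 2 Sdc4+ arrays and 1 Sdc4- array. With values below background at the floor the differences were 1.92 for Bhlhe41, 1.46 for Hes1 and 1.28 for Heyl. In the Cspg4- line 18 of the 19 genes were higher in Sdc4+ cells (median 0.74), and in CD1 12 were (median 0.20). Without the B195AP+ array 18 of 19 were higher.

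The genes around Pax3 and Pax7 showed no common direction. Of 18 dermomyotome and limb muscle regulators tested, 6 were higher and 12 lower in Sdc4+ cells (median -0.17), and 0 passed. With an unadjusted limma p under 0.05 there were 2 that were higher (background 3.8%) and 1 that was lower (background 5.38%). Foxc2, a forkhead factor of somite mesoderm, differed by 1.16 (SE 0.19, limma adjusted p = 0.429), with -1.24 to -0.88 in Sdc4+ and -2.33 to -1.99 in Sdc4- cells. Eya2, a co-activator of sine oculis homeodomain factors, differed by -2.01, with -5.53 and -4.90 in Myf5SOR+ and Cspg4- Sdc4+ cells and -2.29 in CD1 Sdc4+ cells, next to -2.62 to -1.69 in Sdc4- cells. The Myf5SOR+ and Cspg4- Sdc4+ values are below background, and at the floor the difference was -0.91. Tbx1 differed by -0.72 (-0.54 with Myf5SOR+ cells, below background, at the floor) and Meox1 by -0.81, the latter -0.26 without the streaked region.

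Of 17 satellite cell genes tested, 7 were higher and 10 lower in Sdc4+ cells (median -0.12), and 0 passed. The 1 with an unadjusted limma p under 0.05 was lower (background 5.38%). Ncam1, a neural cell adhesion molecule, differed by -1.16 without overlap, with 1.17 to 2.17 in Sdc4+ and 2.21 to 4.18 in Sdc4- cells, and Peg3, an imprinted zinc finger gene, by -1.65 with overlap. Peg3 was well above background on 1 Sdc4+ and 2 Sdc4- arrays, and with the other values at the floor its difference was -0.40. Notch3 and the label gene Sdc4 differed by 1.71 and 1.39, and by 0.76 and 0.29 without the streaked region, where their B195AP+ spots lie. Sdc4 mRNA was at 3.79 in Myf5SOR+, 6.28 in Cspg4- and 6.35 in CD1 Sdc4+ cells, and at 1.88 in B195AP+, 5.10 in Cspg4- and 5.27 in CD1 Sdc4- cells. The groups named for Sdc4 overlapped in its mRNA, since the Myf5SOR+ cells lay under 2 of the Sdc4- populations.

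The 20 partners of Cdon and Boc tested had among them cadherins, netrins, kinases and Hedgehog receptors and effectors. Of these, 11 were higher and 9 lower in Sdc4+ cells (median 0.06), and 0 passed. With an unadjusted limma p under 0.05 there were 2 higher (background 3.8%) and 1 lower (background 5.38%). Groups did not overlap for 2 that were higher (background 7.2%) and 2 that were lower (background 9.26%). Cdh15, M-cadherin of myoblasts, differed by -1.11 without overlap (SE 0.38, limma adjusted p = 0.499). It was highest in B195AP+ (-0.92) and CD1 Sdc4- cells (-0.83) and between -2.63 and -2.13 on the other 5 arrays. The only Cdh15 spot lies in the streaked region of the B195AP+ array, and without that region the difference was -0.93. Cdh2, N-cadherin, differed by -0.58. The Hedgehog receptor Ptch1 differed by 0.65 without overlap and Gas1, a Hedgehog co-receptor, by 1.11 with overlap.

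Of 16 regulatory partners tested (among them E proteins, other Mef2 genes and cofactors), 9 were higher and 7 lower (median 0.04), and 0 passed. An unadjusted limma p under 0.05 was found for 0 (background 9.18%), and 1 was higher without overlap (background 7.2%). Vgll2, a TEAD cofactor of muscle, was at -1.54 in CD1 Sdc4-, -2.84 in B195AP+ and -2.93 in Cspg4+ cells. It was not well above background on the other 4 arrays, all 3 of the Sdc4+ cells among them. The only Vgll2 spot lies in the streaked region of the B195AP+ array. Ankrd2, a stretch-responsive muscle protein, was at -0.84 in CD1 Sdc4-, -3.06 in Cspg4- Sdc4- and -3.84 in CD1 Sdc4+ cells and not well above background on the other 4 arrays. Tead4 differed by -0.61. Tcf3, which encodes the E proteins E12 and E47, differed by 0.86, and by 0.06 without the streaked region.

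**Figure D4:**
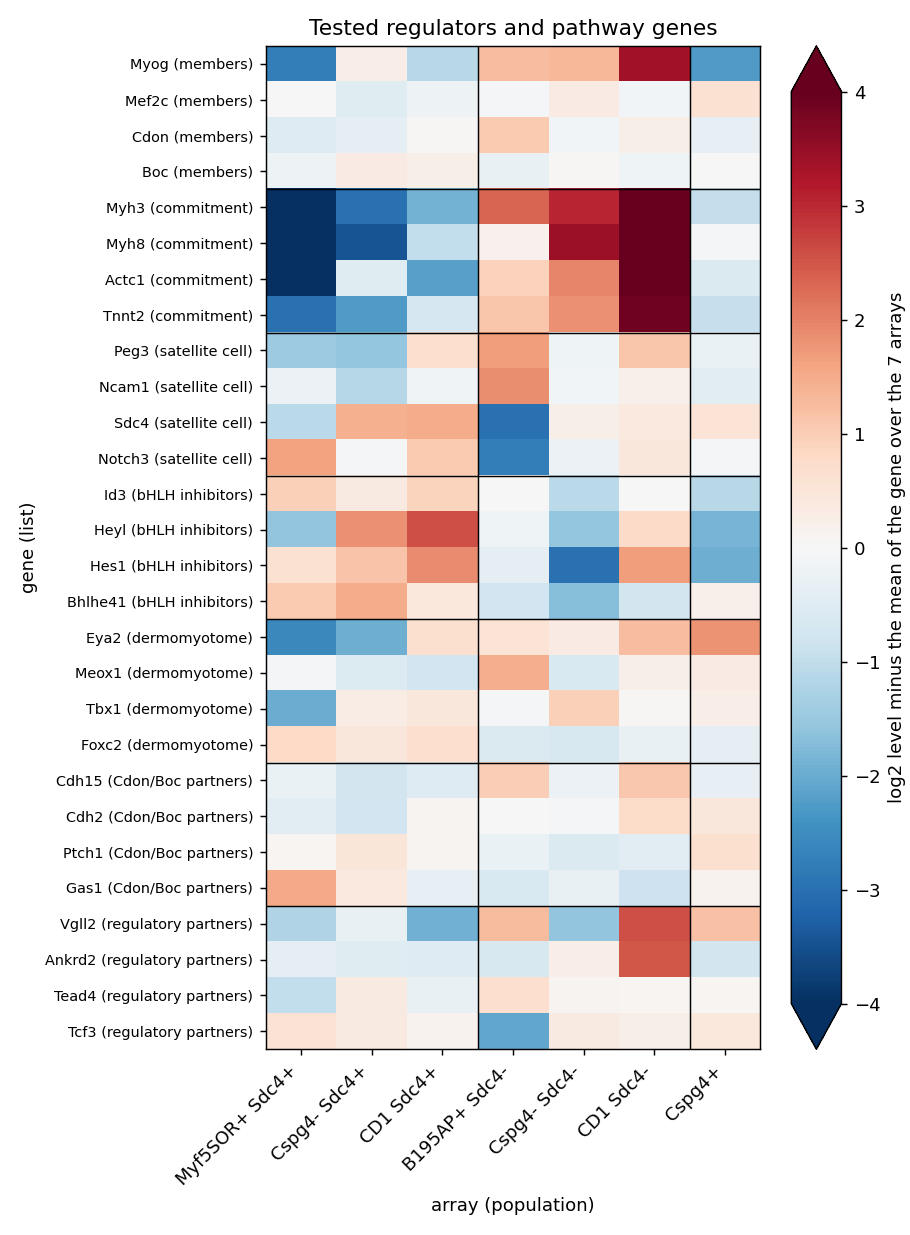
Level of the 4 tested regulators and of the 4 genes with the largest difference from each pathway list, as log2 minus the mean of the gene over the 7 arrays (colour, saturating at 4 either way), by gene (rows, list in parentheses) and population (columns, with lines between Sdc4+, Sdc4- and Cspg4+). Myog and the commitment genes are highest in CD1 Sdc4- cells, while Mef2c and Boc stay close to their mean.

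Markers of other cells were read beside these values. Of 15 adult fibre markers, 12 were well above background in CD1 Sdc4- cells and 7 or 8 on the other 6 arrays. Their summed level, relative to the 75th percentile signal of the array, was 33.4 in CD1 Sdc4- cells, 8.00 in Cspg4- Sdc4-, 4.39 in B195AP+, 3.02 in Cspg4+ and 1.86 to 2.09 in Sdc4+ cells. Myh2, Mylpf and Myoz1 were at background on all 7 arrays, and Ckm, Casq1 and Myh4 were above it in CD1 Sdc4- cells alone. The fibre markers and Myog were highest in the same population, and their part in the Myog and Myod1 values was not tested.

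Dermal fibroblast markers were well above background on every array, with 9 or 10 of 10 and a summed level over 9 genes of 464 to 838 in Sdc4+, 612 to 868 in Sdc4- and 804 in Cspg4+ cells. Endothelial markers numbered 3 or 4 of 9 (Cldn5, Emcn, Tek and Tie1 at background on all 7 arrays). Their summed level was 14.2 to 21.6 in Sdc4+, 19.4 to 24.2 in Sdc4- and 24.4 in Cspg4+ cells. Myeloid markers numbered 5 to 7 of 10 (Ptprc and Lyz2 at background throughout), with 41.0 to 59.4 in Sdc4+, 41.1 to 61.2 in Sdc4- and 45.2 in Cspg4+ cells. B lymphocyte markers numbered 3 or 4 of 9 (Ms4a1 and Pax5 at background throughout), with 5.78 to 7.12, 4.37 to 5.09 and 5.76, higher in all 3 Sdc4+ than in all 3 Sdc4- populations. Smooth muscle and pericyte markers numbered 7 or 8 of 14, with 50.1 to 51.0, 47.8 to 52.8 and 49.2. Melanocyte and neural crest markers numbered 4 to 8 of 12, with 36.1 to 43.8, 18.1 to 33.6 and 24.4, again higher in all 3 Sdc4+ populations. Their part in the Myog difference was not tested.

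The genes most like each tested regulator over the 7 arrays were found by the root mean square difference between centred levels, values below background included. For Myog, with 12259 candidates, they were Myl4 (0.98 log2 units), H19 (1.04), Tnnc2 (1.09), Tnnt3 (1.13) and Tnni2 (1.19). Myl4 encodes an embryonic myosin light chain, H19 a noncoding RNA of an imprinted locus, and the others encode fast troponins, which are also among the adult fibre markers. Myl4 ran from 0.53 in Cspg4+ cells to 4.51 in CD1 Sdc4- cells and H19 from 0.27 in Myf5SOR+ to 5.18 in CD1 Sdc4- cells. For Mef2c the nearest were Zkscan8, Rtl5 and AI987944 (0.08 to 0.11), for Cdon Qrsl1, Plek and Notch2 (0.08 to 0.10) and for Boc Lats2, Nhlrc1 and Fbxw2 (0.08 to 0.09). Mef2c, Cdon and Boc vary over 0.62 to 1.57 log2 units, a small range, and these names describe likeness of level over 7 arrays and nothing more.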

How the data were processed

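The deposited intensity of each spot had its background subtracted by Feature Extraction 11.5.1.1 of Agilent, which the file headers name, and each file held 1 array (62976 spots, mm9 positions). A deposited table of log2 values, linked with lumi in the submitters' processing notes, was an alternative; its centring is unknown. Each array's 75th percentile of log2 processed intensity was subtracted. Control spots and spots marked as outliers (137 to 168 per array, 689 on the B195AP+ array) were left out, and spots of a probe were averaged. Names came from the files, updated through RefSeq accessions for 27656 probes (1711 renamed). A gene was tested where well above background on at least 3 of 7 arrays, by its probe with the highest mean, giving 19760 genes.

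With limma 3.58.1 in R 4.3.3, a mean was fitted for each of 3 groups, with Benjamini-Hochberg adjustment at 0.05, without a block, and the fit was tested on simulated data. For the Cspg4+ group, with 1 array, the spread of the other groups was taken. Nothing says that samples of a group are replicates beyond the shared label: they differ in mouse line, so p-values measure that spread too. The 7 arrays shared 1 slide and 1 scan. Comparisons of 1 array with 1 array carry no test. Where a probe was below background on a side, the bright side was compared, array by array, with the dim side's value or with the dimmest signal called well above background, whichever was higher. Fold bounds come from single arrays or group means of them.

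The regulators, gene lists and streaked region were chosen with earlier results of these data known. Named from the lists were the 4 tested genes with the largest difference per list, and the 3 most like genes per tested regulator (5 for Myog). Alternatives were another background correction (normexp, offset 50), quantile normalization, the deposited table, other filters, single probes, the streaks left out, the mouse line as a block, other detection calls and each array left out. Outlier spots kept, values below background set to the lowest well-above-background value of their array, and list counts without arrays, were added after the data were seen. The level of 1 marker gene is not reported here.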

Additional observations from a re-analysis of the deposited data

Results flagged for a closer look

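Cdon probe 1 was lower in Sdc4+ than in Sdc4- cells of the Cspg4- line (difference -0.205) and higher in Sdc4+ cells of CD1 (difference 0.0417), so that its sign was not shared by the lines. Each line has 1 array a side, and the difference between the lines was not tested. With Cdon probe 2 both lines had the same sign, with -0.27 for Cspg4- and -0.17 for CD1.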

How the results depend on the processing

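The 0 genes called between Sdc4+ and Sdc4- cells became 1 with each of 27259 probes tested alone and 3 with the mouse line as a random block (consensus correlation 0.576). For Cspg4+ cells the 0 became 11 in the deposited table, 26 with the random block and 2952 with no filter on dim probes. The cause was not tested. Nearly all of those 2952 were higher in Cspg4+ cells. That group is 1 array, with the highest median signal of the 7 (21.5, against 9.14 to 16.2). The part of signal level in these calls was not tested. Called by signals positive and significant, 5, 7, 6 and 8 regulators were seen in Cspg4- Sdc4+, Cspg4- Sdc4-, Cspg4+ and CD1 Sdc4- cells. Above the 99th percentile of negative controls, 5 were seen in Cspg4- Sdc4+ (limit 7.87) and 5 in Cspg4+ cells (limit 9.38). Those added in Cspg4- Sdc4+ cells were Pax3, by its second probe (signal 8.45), and Mef2c (10.8). In Cspg4+ cells they were Pax3, by the same probe (13.2), and Msc (12.1). Boc in Cspg4+ cells (0.02 above the mean of both Sdc4 groups) changed sign to -0.10 with normexp, -0.0039 with quantile normalization, -0.11 with the random block, -0.17 with the line as a fixed block, which leaves 1 residual degree of freedom, -0.0625 without Myf5SOR+ cells and -0.0224 without B195AP+ cells, and with each array left out in turn it ran from -0.0625 to 0.0666. The cause was not tested. Between the Sdc4 groups Myog ranged from -3.91 to -1.10 over the alternatives (adjusted p 0.181 to 0.823), with -1.10 under normexp, Cdon from -0.92 to -0.22, Mef2c from -0.45 to -8.5e-05 and Boc from 0.16 to 0.42, each with 1 direction. Of the regulators' differences, 133 kept their direction, with no tested value past the threshold, and 6 changed sign, and of the detection and call counts 70 stayed within 1.5 times and 11 did not. Replicate numbers give no pairing, since every label reads replicate 1. The mouse line, which CD1 and the Cspg4-cre mice share across groups, was the block instead. As a fixed block it pairs the Sdc4+ and Sdc4- arrays of these lines, and Myog then differed by -2.77 between the Sdc4 groups. Signal near background limits Pax7, Pax3, Myf5, Msc, Myod1 and Myf6 to bounds on most arrays.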
